A study of Arabidopsis thaliana with 32 samples.

Results

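A set of 83 loci had more RNA in 8-d than in 4-d Arabidopsis thaliana roots in all 4 combinations of genotype and environment that were grown. They were chosen by that rise itself: each is listed in the authors' deposited tables for age in WS ground, WS spaceflight, sku5 ground and sku5 spaceflight roots, with the 8-d value above the 4-d value in each. Of 4882 loci listed in any of the 11 tables, 161 were listed in all 4 age tables, and 89 of these rose in each. The rule names 14 genes to leave out, which removed 6 of the 89 and left 83. Another 69 of the 161 fell in each table, and 3 moved in mixed directions. A locus here is a stretch of transcribed genome as the authors assembled it. Of the 83, 81 carry a single gene name, 1 merges AT1G78990 and AT1G78995, and 1 on chromosome 3 (872905 to 874361 in the authors' coordinates) has no gene name.

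Roots of 2 genotypes were compared, the WS (Wassilewskija) wild type and a mutant named sku5 after SKU5, a membrane-anchored protein that affects the direction in which roots grow. The sources used here do not give its allele. Light-grown seedlings of both genotypes stood on upright plates of solid medium, either on the International Space Station (spaceflight) or in the same Veggie hardware on the ground, which ran 48 h later. Roots were cut from seedlings fixed at 4 d or 8 d, so the 8 groups are WS and sku5, each in spaceflight and on the ground, each at 4 d and 8 d, with 4 samples per group. Each sample was a pool, of 5 to 8 roots for 4-d seedlings and of 2 to 3 roots for those of 8 d. Whole roots were sequenced, so a lower value may come from fewer cells of a type or from less RNA per cell, and these cannot be told apart.

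Between these ages a seedling root grows in length, its older part matures and branches, and its share of dividing tip tissue falls. Maturing roots lay suberin, a waxy polymer, on the endodermis, build phloem for sugar delivery, start a cambium, the layer of stem cells that thickens the root, and reinforce their walls. Many genes of these processes are known as parts of root development in Arabidopsis.

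The level of a gene is given in FPKM, sequenced fragments per kilobase of transcript scaled to library size, as 1 value per group, so no spread between samples can be computed. The authors list only loci with a q-value under 0.05 in their Cuffdiff test, and "listed" below means this. Depth per library is unknown. SKU5 itself (AT4G12420) was 3.34-fold to 4.35-fold lower in sku5 in all 3 of the authors' deposited tables that compare the genotypes. Lists of genes chosen as markers of other material in a root sample moved with age in the direction opposite to the 83 loci. A photosynthesis list, chosen to mark green shoot tissue, had 7 listed loci. Of these, 5, 7, 4 and 4 were lower at 8 d in WS ground, WS spaceflight, sku5 ground and sku5 spaceflight. None was higher. Summed over these loci, their level went from 260 to 106, 572 to 118, 245 to 77.6 and 227 to 71.3 FPKM. Of 10 listed loci of a seed reserve list, 6, 6, 1 and 9 were lower and none was higher, with summed levels that went from 148 to 1.63, 343 to 60.7, 3.60 to 0.705 and 7313 to 327 FPKM. Whether the RNA of these loci came from such material or from the root itself was not tested. No gene of either list is among the 83, and their part in the rises was not tested.

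The rises were moderate for most loci and very large for a few. Over the 83, the median fold was 2.39 in WS ground, 2.34 in WS spaceflight, 2.54 in sku5 ground and 2.67 in sku5 spaceflight. All loci listed as higher at 8 d in the same tables had medians of 1.81, 1.92, 2.00 and 1.81. These were 10.5% of the 4882 loci in WS ground, 9.61% in WS spaceflight, 10.5% in sku5 ground and 14.3% in sku5 spaceflight. Nothing is read from these shares or from the gap between the medians, because the same contrasts chose the 83. The need to be listed as higher in all 4 age tables itself favours larger folds. Of the 83, 35 rose at least 2-fold in all 4 settings, 77 did so in at least 1, and 4 rose at least 4-fold in all. For 79 loci even the lowest of the 4 values at 8 d lay above the highest at 4 d. The exceptions were SP1L5 (AT4G23496), ANNAT7 (AT5G10230), AT5G07475 and AT2G43670. The highest value at 8 d was that of WS ground roots for 46 loci, sku5 ground for 25, sku5 spaceflight for 10 and WS spaceflight for 2. The lowest at 4 d was that of WS spaceflight for 43 loci, sku5 spaceflight for 26, sku5 ground for 12 and WS ground for 2. Such orders compare values across age tables that were each scaled on their own. Between an age table and a table of another contrast, the scale of the same group differed by up to 10.8%.

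**Figure D1:**
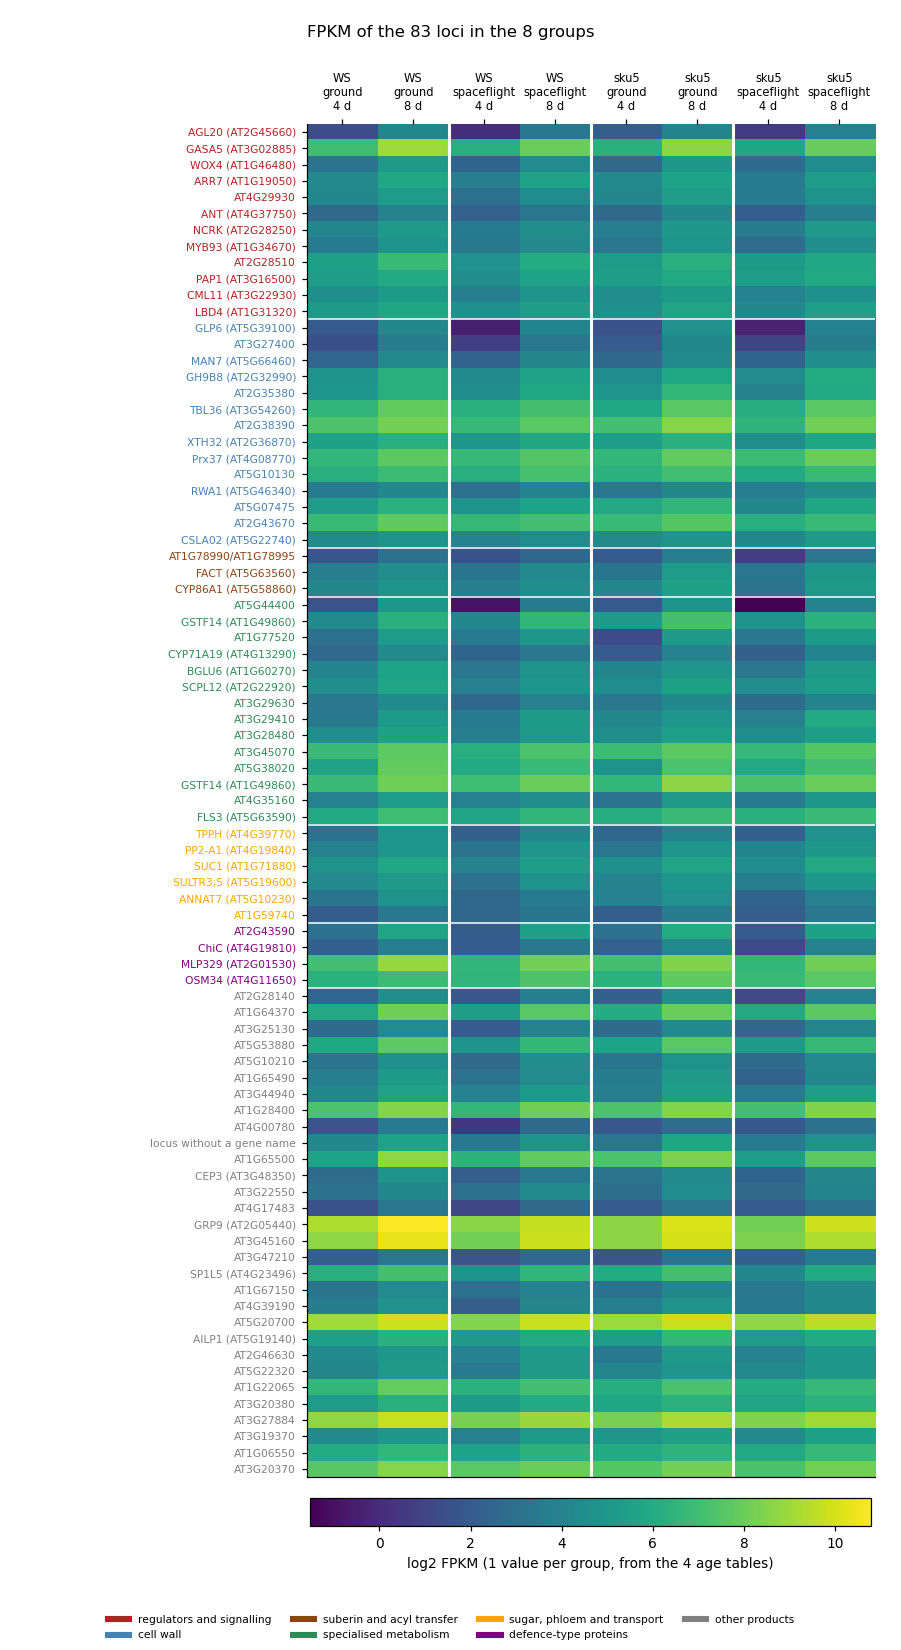
Level of each of the 83 loci (rows, coloured by role) in the 8 groups (columns), as log2 FPKM with 1 value per group. In every row and setting the 8-d cell is brighter than the 4-d cell beside it, which is how the rows were chosen. The levels range from GRP9 at 1782 FPKM in WS ground at 8 d to AT5G44400 at 0.349 FPKM in sku5 spaceflight at 4 d.

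The 12 loci for regulators and signalling proteins include several genes known from the vascular cambium. No list of cambium genes was examined, so nothing about the cambium is read from these genes. WOX4 (AT1G46480) encodes a homeobox factor that maintains cambium stem cells. It went from 8.91 to 35.5 FPKM in WS ground, 5.39 to 21.6 in WS spaceflight, 6.72 to 33.0 in sku5 ground and 6.94 to 21.8 in sku5 spaceflight in the authors' deposited tables. Its folds lay between 3.15 and 4.90. ANT (AT4G37750), an AP2-type factor that promotes organ growth and acts in the cambium, went from 6.62 to 15.8, 5.18 to 10.1, 6.62 to 19.0 and 4.55 to 13.4 FPKM in the same order of settings in the authors' deposited tables. LBD4 (AT1G31320), a LOB-domain factor of the vascular tissue, rose 1.43-fold to 2.34-fold and was among the smaller rises.

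AGL20 (AT2G45660), also called SOC1, is a MADS-box factor best known for promoting flowering in the shoot. It stood at 2.72, 1.05, 4.58 and 1.5 FPKM at 4 d and at 17.7, 10.9, 16.6 and 14.8 FPKM at 8 d, in WS ground, WS spaceflight, sku5 ground and sku5 spaceflight, in the authors' deposited tables. Its rise of 3.63-fold to 10.4-fold was the largest among the regulators by its smallest fold. ARR7 (AT1G19050), a type-A response regulator that dampens cytokinin signalling, went from 11.8 to 19.7 FPKM over the settings at 4 d to between 39 and 57.1 at 8 d in the authors' deposited tables. GASA5 (AT3G02885), a small cysteine-rich peptide of the gibberellin-regulated family, was the most abundant of the 12, at 128, 75.4, 79.4 and 53.9 FPKM at 4 d and 503, 261, 404 and 245 FPKM at 8 d in the authors' deposited tables. Others in this group are the bHLH factor AT4G29930, MYB93 (AT1G34670), which limits lateral root formation, the Dof zinc finger factor AT2G28510, the Aux/IAA protein gene PAP1 (AT3G16500), the calmodulin-like CML11 (AT3G22930) and the protein kinase NCRK (AT2G28250). Their smallest folds ran from 1.47 (CML11) to 2.04 (AT4G29930).

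The 14 cell wall loci were led by GLP6 and a pectin lyase-like gene. GLP6 (AT5G39100), a germin-like protein of the wall, stood at 3.93, 0.728, 2.98 and 0.802 FPKM at 4 d and 18.3, 16.5, 26.3 and 15.5 FPKM at 8 d in the authors' deposited tables. Both spaceflight groups were the low ones at 4 d, at under 1 FPKM, and GLP6 was not listed for spaceflight at that age. Its folds were 22.6 (WS) and 19.3 (sku5) in spaceflight and 4.66 and 8.81 on the ground. These differences in the log2 rise, 2.28 ± 1.49 (SE) in WS and 1.13 ± 1.48 in sku5, were under 2 standard errors. AT3G27400, of the pectin lyase family, rose 4.19-fold to 6.39-fold to between 9.87 and 17.6 FPKM in the authors' deposited tables. MAN7 (AT5G66460), an endo-mannanase, rose 3.16-fold to 4.54-fold. GH9B8 (AT2G32990) is an endoglucanase-type glycosyl hydrolase and XTH32 (AT2G36870) a xyloglucan-modifying enzyme, with smallest folds of 2.33 and 1.70. RWA1 (AT5G46340) and TBL36 (AT3G54260) belong to families that acetylate wall polymers, and CSLA02 (AT5G22740) makes glucomannan.

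Class III peroxidases, enzymes that can crosslink wall polymers, contribute 3 members, of 31 loci of the family that are listed in any table. The most abundant, AT2G38390, went from 164 to 296 FPKM in WS ground, 106 to 199 in WS spaceflight, 137 to 374 in sku5 ground and 89.6 to 292 in sku5 spaceflight in the authors' deposited tables. Prx37 (AT4G08770) rose 1.68-fold to 2.34-fold and AT2G35380 2.28-fold to 4.15-fold. Over all 31 loci the direction was not uniform: 9, 6, 9 and 13 were listed as higher at 8 d and 6, 3, 7 and 4 as lower, in WS ground, WS spaceflight, sku5 ground and sku5 spaceflight.

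Genes of suberin and acyl transfer form a small group of 3 loci. CYP86A1 (AT5G58860) encodes the fatty acid hydroxylase of root suberin. It went from 17.6 to 28.6 FPKM in WS ground and 13.7 to 23.0 in WS spaceflight, but from 16.8 to 46.2 in sku5 ground and 9.19 to 33.9 in sku5 spaceflight, in the authors' deposited tables. FACT (AT5G63560), which makes the alkyl caffeates of suberin wax, went from 13.5 to 24.0, 9.77 to 19.1, 9.68 to 38.0 and 9.84 to 31.7 FPKM in the same order in the authors' deposited tables. For both genes the sku5 rises exceeded the WS rises in size, by at most 1.14 on the log2 scale, which is less than 2 standard errors of the difference. The merged locus AT1G78990/AT1G78995 rose 2.08-fold to 5.85-fold. It is placed here only because it is annotated to the same acyltransferase family as FACT. Of 9 listed loci of an endodermis and suberin list, 5, 1, 3 and 5 were higher at 8 d in the 4 settings and 1, 0, 0 and 0 lower. CYP86A1 alone of that list rose in all 4. GPAT5, FAR4, FAR5 and CYP86B1, other suberin enzymes, were listed as higher in WS ground and in sku5 spaceflight and were not listed in WS spaceflight.

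Specialised metabolism holds 14 loci and the steepest rise of all. AT5G44400, a berberine bridge enzyme-like oxidase, stood at 3.17, 0.532, 3.97 and 0.349 FPKM at 4 d and 32.1, 11.6, 28.3 and 16.1 FPKM at 8 d in the authors' deposited tables. Its log2 rise was 3.34 ± 0.57 (SE) in WS ground, 4.45 ± 1.01 in WS spaceflight, 2.83 ± 0.55 in sku5 ground and 5.52 ± 1.25 in sku5 spaceflight, where the SE is the authors' log2 fold change over their test statistic. The low 4-d values in spaceflight make those 2 folds, 21.9 and 46.0, the least precise. The O-methyltransferase genes AT1G77520 and AT4G35160 and a methyltransferase of another family, AT5G38020, had smaller rises in spaceflight than on the ground in each genotype. Of these differences only those of AT5G38020 in both genotypes and of AT1G77520 in sku5 passed 2 standard errors. AT4G35160, at -0.69 ± 0.55 (SE) in WS and -0.53 ± 0.60 in sku5, and AT1G77520 in WS, at -0.95 ± 0.61, did not. AT1G77520 went from 7.83 to 39.4 and 2.54 to 35.4 FPKM on the ground but from 12.1 to 31.6 and 10.2 to 36.9 in spaceflight, WS first, in the authors' deposited tables. AT5G38020 went from 48.5 to 231 and 28.4 to 158 FPKM on the ground and from 64.1 to 109 and 60.0 to 139 in spaceflight, WS first, in the authors' deposited tables.

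GSTF14 (AT1G49860), a glutathione transferase, appears as 2 loci with the same span. The more abundant rose from 118 to 272, 125 to 253, 100.1 to 402 and 152 to 255 FPKM and the other from 20.8 to 80.1, 19.1 to 97.8, 35.0 to 144 and 26.8 to 82.2 in the authors' deposited tables. How reads were divided between them is not given, so both levels are uncertain. Others in this group are the cytochrome P450 CYP71A19 (AT4G13290), the terpene cyclase AT3G29410, the flavonol synthase homologue FLS3 (AT5G63590), the beta-glucosidase BGLU6 (AT1G60270), the carboxypeptidase-like acyltransferase SCPL12 (AT2G22920), the UDP-glycosyltransferase AT3G29630, the oxoglutarate-dependent oxygenase AT3G28480 and the sulfotransferase-type AT3G45070. The annotated product of AT3G28480 is general, so its place in this group is uncertain.

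Another 6 loci belong to sugar supply, phloem and transport. PP2-A1 (AT4G19840), a lectin of the phloem, went from 14.7 to 31.2, 9.30 to 30.3, 9.82 to 30.0 and 16.2 to 33.5 FPKM in the authors' deposited tables, so its 8-d values lay close together. SUC1 (AT1G71880), a sucrose-proton symporter, went from 27.2 to 58.6, 16.1 to 40.1, 25.4 to 50.8 and 22.4 to 60.7 FPKM in the authors' deposited tables. TPPH (AT4G39770) removes phosphate from trehalose 6-phosphate, a signal of sugar status, and went from 8.32 to 30.8, 4.81 to 17.5, 6.25 to 16.4 and 5.01 to 26.2 FPKM in the authors' deposited tables. The sulfate transporter SULTR3;5 (AT5G19600), the NRT1/PTR-family transporter AT1G59740 and the annexin ANNAT7 (AT5G10230) had smallest folds of 1.78, 1.64 and 1.70.

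The 4 loci for defence-type proteins include 2 chitinases. AT2G43590 stood at 8.78, 4.32, 8.38 and 3.94 FPKM at 4 d and 50.8, 46.1, 66.9 and 46.3 FPKM at 8 d in the authors' deposited tables, a rise of 5.79-fold to 11.8-fold. ChiC (AT4G19810) rose 2.61-fold to 6.19-fold. The major latex-like protein gene MLP329 (AT2G01530) rose 2.51-fold to 3.25-fold and the osmotin gene OSM34 (AT4G11650) 1.5-fold to 2.75-fold.

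The other 30 loci were given none of these roles, and the most abundant of the 83 are among them. GRP9 (AT2G05440), a glycine-rich protein, went from 621 to 1782, 396 to 807, 401 to 1122 and 301 to 971 FPKM in the authors' deposited tables. AT3G45160, a putative membrane lipoprotein, reached 651 FPKM (sku5 spaceflight) to 1320.5 FPKM (WS ground), and AT5G20700, of a senescence-associated family, 737 to 924 FPKM, in the authors' deposited tables. Both loci span over 10000 bp, so their reads may come from several genes. AT3G27884, which is annotated as an RNA with no protein product, AT1G28400, annotated as a GATA zinc finger protein, and AT1G65500, a small uncharacterised protein, also stood among the 10 highest. AT2G28140 and AT3G44940, a pair with the DUF1635 domain, rose 3.69-fold to 6.76-fold and 2.34-fold to 3.46-fold. AT1G64370, annotated as filaggrin-like, rose 3.47-fold to 4.95-fold. CEP3 (AT3G48350), here the cysteine endopeptidase and not the peptide hormone of that name, rose 2.15-fold to 3.89-fold, and SP1L5 (AT4G23496), of a family that organises cortical microtubules, 1.92-fold to 3.47-fold.

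**Figure D2:**
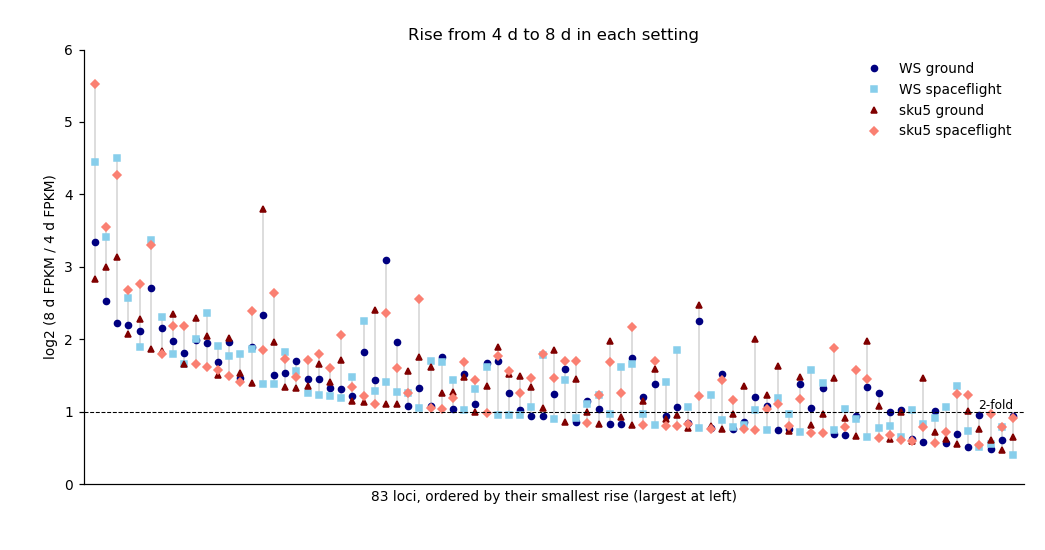
Log2 of 8-d over 4-d FPKM for each of the 83 loci (x axis, ordered by smallest rise) in the 4 settings (markers), with a grey line from smallest to largest and a dashed line at 2-fold. The 35 loci with every marker above the dashed line are at the left, and the markers of AT5G44400, at the far left, span 7.12-fold to 46.0-fold.

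At the edge of the rule, the smallest rises inside were those of AT3G20370, a TRAF-like protein gene (1.33-fold to 1.91-fold), AT1G06550 (1.39-fold to 1.72-fold) and CSLA02 (1.39-fold to 1.95-fold). Just outside stands AT2G41100 (TCH3), a touch-induced calmodulin-like gene. It was 2.08, 2.07 and 2.21-fold higher at 8 d in WS ground, sku5 ground and sku5 spaceflight but 2.4-fold lower in WS spaceflight in the authors' deposited tables. Loci that rose in 3 tables and were not listed in the other numbered 147.

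The sizes of the rise in spaceflight and on the ground come from the values that chose the loci and are given as a description, with no test. The differences went both ways, from -1.68 to 2.28 on the log2 scale in WS and from -1.95 to 2.69 in sku5, spaceflight minus ground. The median difference in the log2 rise was -0.02 in WS, with 41 loci rising more in spaceflight and 42 less, and 0.08 in sku5, with 46 more and 37 less. All loci listed as higher at 8 d in both environments had medians of 0.11 (218 loci, WS) and -0.06 (209 loci, sku5). Between genotypes, sku5 minus WS, the medians were 0.06 on the ground and 0.01 in spaceflight. Only a few loci differed by more than 2 standard errors, 2 and 5 of 83 between environments in WS and sku5, and 1 and 0 between genotypes on the ground and in spaceflight, with no test made. AT5G38020 rose less in spaceflight in both genotypes, by -1.49 ± 0.40 (SE) in WS and -1.26 ± 0.45 in sku5 on the log2 scale. AT1G77520 did so in sku5 (-1.95 ± 0.79). AT3G29410 rose more in spaceflight in sku5 (1.34 ± 0.63) and the abundant GSTF14 locus less (-1.25 ± 0.48). AT1G65500 accounts for the remaining 3 differences.

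Spaceflight against ground at the same age is a contrast that did not choose the 83, although it uses the same libraries. At 8 d many of them were lower in spaceflight. In WS, 40 of the 83 were listed as lower (48.2%, against 9.79% of all 4882 loci) and 2 as higher (2.41%, against 8.4%). In sku5, 32 were listed as lower (38.6%, against 22.7%) and 2 as higher (2.41%, against 11.1%). These shares compare unlike sets: all 83 are listed in 4 age tables, while 841 of the 4882 rose in only 1 and fell in none. Loci listed in many tables may be easier to list in another, and the part of this was not tested. The same limit holds for the shares of all loci given below. The 69 falling loci, chosen by the same tables, gave 3 lower and 17 higher in WS, and 11 lower and 6 higher in sku5. At 4 d few loci were listed: in WS 2 of the 83 as lower (1.33% of all loci) and 1 as higher (1.29%), and in sku5 9 as lower (8.34%) and 2 as higher (12.3%). At 4 d loci of the photosynthesis and seed reserve lists also moved with spaceflight. In WS 5 photosynthesis and 3 seed reserve loci were listed as higher, and in sku5 0 and 5, where 1 photosynthesis locus was lower. At 8 d no locus of either list was listed in WS, while in sku5 6 of the 10 seed reserve loci were listed as higher in spaceflight, none as lower and no photosynthesis locus either way. Their part in these ratios was not tested.

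Because unlisted loci have no entry in a table, the ratios of all 83 were also rebuilt from the age tables, after putting each group's values on the scale of the table concerned. The values used are those that chose the 83, so these ratios are a description. In WS the median log2 ratio of spaceflight to ground was -0.46 at 4 d (69 of 83 lower) and -0.40 at 8 d (73 of 83 lower). All loci with values means those listed, with values above 0, in both age tables concerned. They include the 83 and the falling loci. Over all of them the medians were 0.06 (475 loci) and -0.01 (457 loci), and over the falling loci 0.27 and 0.21. The WS rising loci were lower in spaceflight by about as much at 4 d as at 8 d. Apart from the scale between tables, this restates the median difference in the log2 rise of -0.02 given above. Only 2 of them were listed as lower at 4 d. In sku5 the medians were -0.29 at both ages (65 of 83 lower at each), and all 423 loci with values gave -0.24 and -0.28. As shares, 83.1% and 88.0% of the 83 were lower in WS at 4 d and 8 d, against 46.3% and 51.2% of all loci with values. In sku5 the share was 78.3% at both ages, against 66.0% and 73.0%. The gap between the rising loci and all loci was thus smaller in sku5, but no test of these values or of the difference between the genotypes was made. The median transcript length in the reference annotation was 1406 bases for the 40 loci lower in WS and 1590.5 for those not listed, 1279 and 1632.5 in sku5. All loci lower in spaceflight at 8 d had medians of 1267 (WS) and 1009 (sku5), and all higher loci 2340 and 2286. The part of length in these counts was not tested.

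**Figure D3:**
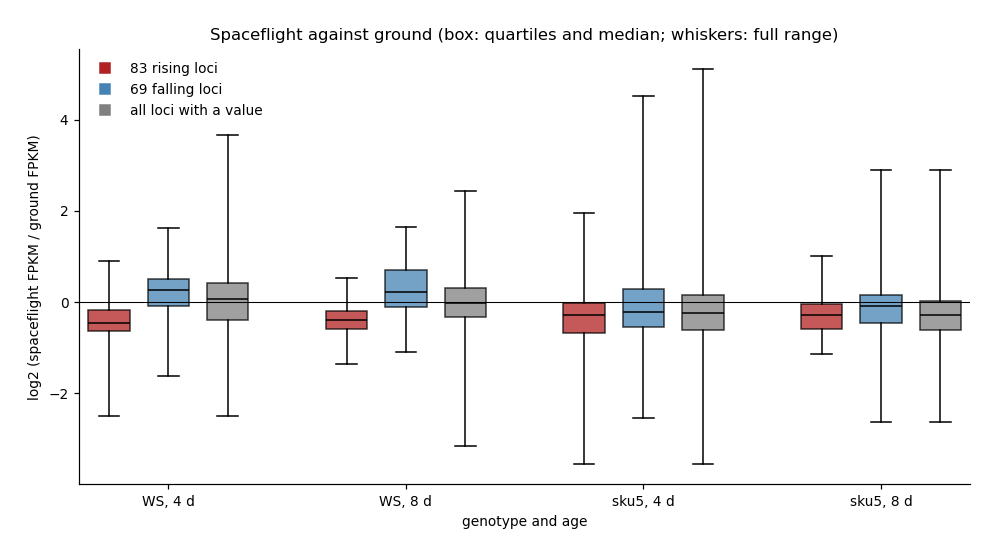
Log2 of spaceflight over ground FPKM by genotype and age (x axis) for the 83 rising loci, the 69 falling loci and all loci with a value, with boxes at the quartiles, a line at the median and whiskers over the full range. In WS the rising loci have medians of -0.46 and -0.40 against 0.06 and -0.01 for all loci, and in sku5 -0.29 at both ages against -0.24 and -0.28.

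In both genotypes 23 of the 83 (27.7%) were listed as lower in spaceflight at 8 d, against 4.61% of all 4882 loci, and 0 as higher in both, against 1.07%. Lower in WS with no sku5 entry were 16 (19.3%, against 4.96%), lower in sku5 with no WS entry 9 (10.8%, against 17.6%), and opposite in direction 1 (1.2%, against 0.717%). For 31 loci (37.3%, against 54.4%) neither genotype was listed. AT5G44400 had the largest fall by the mean of both genotypes, at 12.8 against 32.8 FPKM in WS (log2 -1.36 ± 0.28 SE, q = 0.00259) and 16.8 against 30.5 FPKM in sku5 (-0.86 ± 0.28, q = 0.00136) in the authors' deposited tables. ANNAT7, a member of the calcium-binding annexins, stood at 12.4 against 27.9 FPKM in WS and 15.2 against 27.8 in sku5, and AT5G53880, of unknown function, at 109.8 against 222 and 107 against 216 FPKM, in the authors' deposited tables. AT1G65490, the unnamed locus on chromosome 3 and SP1L5 completed the first 6. SP1L5 was 1.42-fold lower in WS (q = 0.0257) and 2.19-fold lower in sku5 (q = 0.00136) in the authors' deposited tables.

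Among the regulators 8 of 12 were lower in WS and 7 of 12 in sku5 at 8 d, and none was higher. The shares to read this against are 48.2% and 38.6% of all 83 and 9.79% and 22.7% of all loci. Roles were assigned with the values known and the groups are small, so nothing particular to a role is read from such counts, here or for the other roles. WOX4 stood at 23.6 against 36.4 FPKM in WS (log2 -0.62 ± 0.29) and 22.8 against 35.5 in sku5 (-0.64 ± 0.32), with q of 0.00259 and 0.00136, in the authors' deposited tables. ANT stood at 11 against 16.2 and 13.9 against 20.5 FPKM, and GASA5 at 286 against 515 and 256 against 435 FPKM, WS first, in the authors' deposited tables. The bHLH gene AT4G29930, the Dof gene AT2G28510 and MYB93 were listed as lower in both genotypes, AGL20 and NCRK in WS, and CML11 in sku5. ARR7, LBD4 and PAP1 were listed in neither, with rebuilt log2 ratios from -0.16 to -0.30 in WS and from -0.03 to -0.38 in sku5.

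Of the 14 wall loci, 7 were lower and 1 higher in WS, and 6 lower and 0 higher in sku5. Both peroxidases AT2G35380 and AT2G38390, XTH32, the cupredoxin AT5G07475 and the carbohydrate-binding X8 protein gene AT2G43670 were lower in both. The exception was AT5G10130, of the Ole e 1 allergen and extensin family, at 160 against 126 FPKM in WS (1.27-fold higher, q = 0.0257) in the authors' deposited tables. Specialised metabolism gave 7 lower in WS and 2 in sku5, where AT3G29410, the terpene cyclase, stood at 67.5 against 33.7 FPKM (2.01-fold higher, q = 0.00136) in the authors' deposited tables. That locus spans 59447 bp, the longest of the 83, so its reads may come from several genes. The same limit holds for AT1G64370 (44436 bp), AT3G45160 (33095 bp), Prx37 (32847 bp), AT5G20700 (28785 bp), OSM34 (28257 bp) and SP1L5 (14714 bp). OSM34 was the other locus higher in WS, at 181 against 125 FPKM (q = 0.00259), in the authors' deposited tables. No locus of the suberin and acyl transfer group was listed in WS. CYP86A1 was lower in sku5 at 4 d (8.56 against 16.2 FPKM, q = 0.0285) and at 8 d (35.3 against 49.8 FPKM, q = 0.00346) in the authors' deposited tables.

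TPPH was the only one of the 83 listed in opposite directions at 8 d. It stood at 19.2 against 31.5 FPKM in WS, spaceflight first (log2 -0.71 ± 0.30, q = 0.00259), and at 27.3 against 17.7 FPKM in sku5 (0.63 ± 0.33, q = 0.00136), in the authors' deposited tables.

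**Figure D4:**
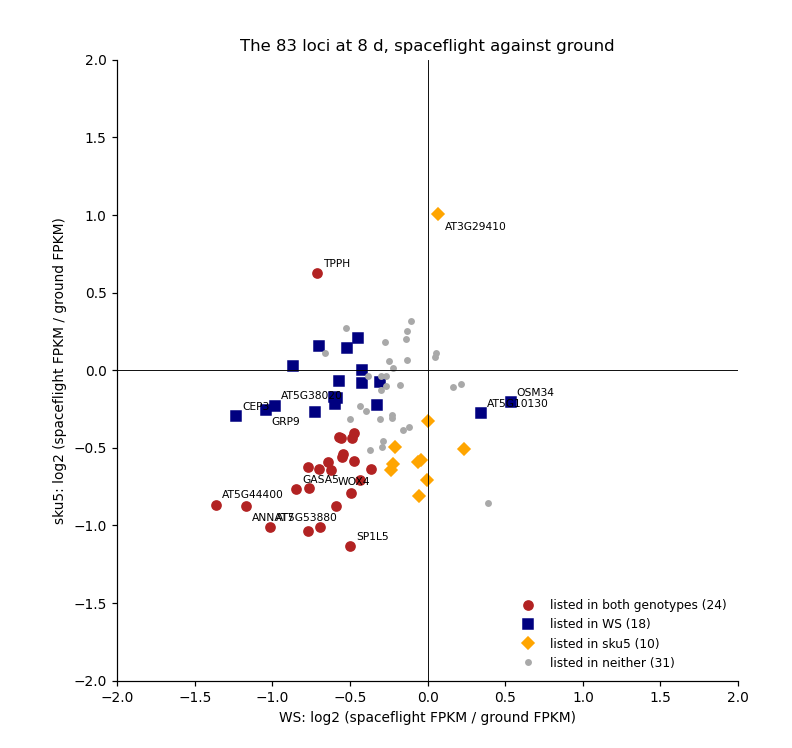
Log2 of spaceflight over ground FPKM at 8 d for each of the 83 loci, WS on the x axis and sku5 on the y axis, with markers for the genotypes in which the authors list the locus. Of 24 loci listed in both genotypes, 23 lie in the lower left quadrant and TPPH lies in the upper left.

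At 4 d the sku5 roots gave larger single differences. The wall gene AT5G07475 stood at 17.1 against 58.9 FPKM (3.45-fold lower in spaceflight, q = 0.00207) and SP1L5 at 17.3 against 63.9 FPKM (3.69-fold lower, q = 0.0299) in the authors' deposited tables. ANNAT7, XTH32, AGL20, CML11, CYP86A1, AT3G19370 and AT1G65500 were the other 7 lower loci. AT1G77520 was 3.90-fold and AT5G38020 2.04-fold higher in spaceflight (q = 0.00207 for both) in the authors' deposited tables. In WS the lower loci were SULTR3;5, at 8.54 against 17.6 FPKM (q = 0.0113), and AT4G39190, at 4.58 against 11.7 FPKM (q = 0.0433), in the authors' deposited tables.

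The adjacent genes AT1G65490 and AT1G65500, both for uncharacterised small proteins, lie 2548 bp apart on chromosome 1 (23949753 to 23953684 in the authors' coordinates). AT1G65490 had 4-d values of 13.6, 8.96, 13.2 and 5.30 FPKM and 8-d values of 37.2, 21.5, 33.9 and 17.4 FPKM in WS ground, WS spaceflight, sku5 ground and sku5 spaceflight in the authors' deposited tables. AT1G65500 had 4-d values of 48.8, 86.0, 156 and 39.9 FPKM and 8-d values of 416, 228, 336 and 205 FPKM in the same order in the authors' deposited tables. Both genes were lower in spaceflight in both genotypes at 8 d, but AT1G65500 varied far more at 4 d. There it was 3.31-fold higher in sku5 than in WS on the ground (q = 0.00558), 1.87-fold higher in spaceflight in WS (q = 0.0433) and 4.07-fold lower in spaceflight in sku5 (q = 0.00207) in the authors' deposited tables. Its age rise was accordingly 8.52-fold in WS ground and 2.15-fold in sku5 ground.

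The 83 loci lie on all 5 chromosomes, with 18, 14, 20, 13 and 18 on chromosomes 1 to 5. Another 4 pairs of members lie within 20000 bp of each other. They are the TRAF-like genes AT3G20370 and AT3G20380 (852 bp apart), ChiC and PP2-A1 (7694 bp), AT5G10210 and ANNAT7 (709 bp), and FACT and FLS3 (5482 bp). The library kit does not mark strand, so reads of overlapping genes cannot be told apart.

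At 8 d fewer of the 83 were listed between genotypes than between environments. On the ground at 4 d, 1 was listed as higher in sku5 than in WS (3.75% of all loci) and 4 as lower (4.06%). At 8 d on the ground 9 were higher (10.8%, against 6.51%) and 9 lower (10.8%, against 4.24%). At 8 d in spaceflight 15 were higher (18.1%, against 11.9%) and 6 lower (7.23%, against 17%). The rebuilt median log2 ratio of sku5 to WS was -0.01, -0.02 and 0.14 in these 3 comparisons, and all loci with values gave 0.03, 0.05 and 0.01. In spaceflight at 8 d 55 of 83 ratios were above 0, and the falling loci had a median of -0.24. The ground and spaceflight comparisons of the genotypes share no library, but each shares its libraries with the spaceflight comparisons. Of the 10 seed reserve loci, 4 were listed as lower in sku5 on the ground at 4 d, none on the ground at 8 d, and 3 as higher in spaceflight at 8 d. Of the 7 photosynthesis loci, none was listed at 4 d and 1 was lower in sku5 in each environment at 8 d. The part of these loci in the genotype values was not tested.

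At 8 d the 3 loci of suberin and acyl transfer were listed as higher in sku5 than in WS on the ground, and 2 of them in spaceflight. CYP86A1 had 49.2 against 29.3 FPKM on the ground (log2 0.75 ± 0.25, q = 0.00381) and 35.3 against 25.5 FPKM in spaceflight (0.47 ± 0.25, q = 0.00642), sku5 first, in the authors' deposited tables. FACT had 40.5 against 24.6 and 33.1 against 21.2 FPKM (q = 0.00381 and 0.00182) in the authors' deposited tables. The merged locus AT1G78990/AT1G78995 was 1.67-fold higher on the ground (q = 0.0182) in the authors' deposited tables and was not listed in spaceflight. At 4 d on the ground none of the 3 was listed, and their rebuilt log2 ratios of sku5 to WS were -0.02 for CYP86A1, -0.43 for FACT and 0.31 for the merged locus.

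Of the 14 wall loci, 6 were higher in sku5 in spaceflight at 8 d, where 18.1% of the 83 and 11.9% of all loci were. These were AT2G38390, GH9B8, TBL36, RWA1, CSLA02 and MAN7, with folds from 1.29 (TBL36) to 1.43 (CSLA02) in the authors' deposited tables. Another 2 wall loci were lower, where 7.23% of the 83 and 17% of all loci were. Nothing particular to the role is read from these counts. AT5G10130 stood at 119 against 162 FPKM (log2 -0.45 ± 0.21 SE, q = 0.00182) and AT2G43670 at 116 against 161 FPKM (-0.47 ± 0.24, q = 0.00182), sku5 first, in the authors' deposited tables. The wall genes therefore went both ways between the genotypes. TBL36 had been lower in sku5 at 4 d on the ground, at 54.4 against 92.2 FPKM (q = 0.0134), in the authors' deposited tables. AT2G38390 was higher in sku5 in both environments at 8 d, at 398 against 304 FPKM on the ground and 305 against 220.4 FPKM in spaceflight, in the authors' deposited tables. Lower in sku5 in both environments were AT3G45160, the Dof gene AT2G28510 and AT1G22065, an uncharacterised protein gene at 163 against 242 FPKM on the ground and 109 against 156 FPKM in spaceflight in the authors' deposited tables. The methyltransferase gene AT5G38020 was lower in sku5 on the ground at 4 d (27.7 against 45.6 FPKM) and at 8 d (169 against 237 FPKM) in the authors' deposited tables. TPPH again changed sign, 1.8-fold lower in sku5 on the ground (q = 0.00381) and 1.40-fold higher in spaceflight (q = 0.0221) in the authors' deposited tables.

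**Figure D5:**
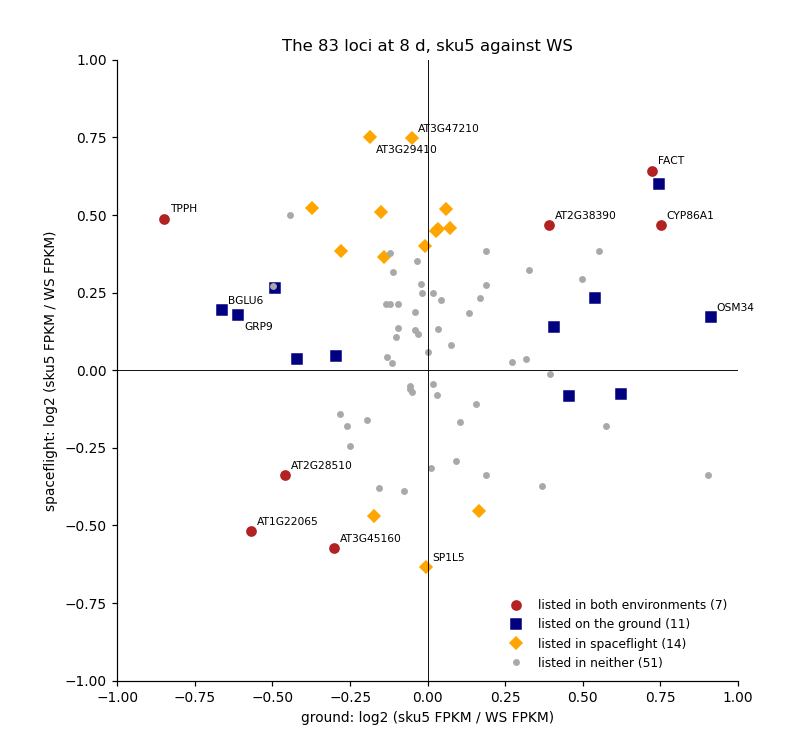
Log2 of sku5 over WS FPKM at 8 d for each of the 83 loci, ground on the x axis and spaceflight on the y axis, with markers for the environments in which the authors list the locus. CYP86A1, FACT and AT2G38390 are listed as higher in both, AT3G45160, AT2G28510 and AT1G22065 as lower in both, and TPPH as lower on the ground and higher in spaceflight.

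In 22 of the 83 loci no comparison of environment or genotype was listed. The 83 are 1.7% of the 4882 loci, and other gene lists hold 2 to 13 listed loci each, so a count of 0 members says nothing about a list. Of the lists for root hairs, iron, phosphate, aquaporins, lateral root formation, secondary wall and xylem, nitrate and ammonium, defence hormones and senescence, none had a member. Iron genes were lower at 8 d at 6, 1, 7 and 6 of 10 listed loci in the 4 settings and aquaporins at 6, 1, 7 and 2 of 11. The phloem list had 1 member, PP2-A1, of 3 listed loci.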

How the data were processed

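The 32 root samples in 8 groups were sequenced by the authors, with 10 ng of RNA per library and kits that amplify cDNA. Tools named in the submitters' processing notes are STAR 2.5.1b, Cuffdiff, Cufflinks, Picard, Trimmomatic 0.36 and FastQC 0.11.2, with no roles, and the genome build is also not given. The authors deposited 11 tables. Per the file headers, these hold 1 FPKM value per group and locus, scaled within each table. Fold changes are on the log2 scale, per the file headers. The test statistic that the authors deposited is a signed score. Each entry has the p-value and q-value that the authors deposited, and only loci with q under 0.05 are listed. The number of loci tested by the authors is unknown, so shares are over the 4882 loci listed anywhere.

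Tables were turned so that 8 d, spaceflight and sku5 stand over 4 d, ground and WS. Ratios of unlisted loci were rebuilt from the age tables with the constant factor between tables (62 to 505 shared loci, standard deviation at most 0.00245 on the log2 scale). Rebuilt ratios differed from listed ones by at most 0.00816, with 0 opposite signs. A run on simulated data without noise only checked the code, because there the factors are recovered by construction. The standard error is the log2 fold change over the score, a rough scale. Symbols, products and transcript lengths come by gene identifier from RefSeq TAIR10.1 (81 single-gene loci matched, with GSTF14 counted at each of its loci). The start positions of these genes differ from the authors' coordinates by up to 433.8 kb, so coordinates are the authors' alone, their build is not given, and no sequence was read. Promoter motifs, planned, were left out for that reason.

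The members and lists were chosen with earlier results of these data known, and roles were assigned after values were seen. Genes were named by level (the 10 highest), smallest age fold (10 largest and 3 smallest), spaceflight calls in both genotypes (6), genotype calls in at least 2 tables (6), gene list or family (up to 4) and regulators (6). Any other gene was named after its values were seen. Python 3.11.15, pandas 2.3.3, numpy 2.4.6 and matplotlib 3.10.9 were used.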

Additional observations from a re-analysis of the deposited data

Results flagged for a closer look

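Changes in opposite directions were found for 2 of the 83 loci, and the differences were not tested. AT1G65500, an uncharacterised small protein gene, moved in opposite directions in spaceflight at 4 d, with a log2 change of 0.90 in WS (q = 0.0433) and -2.03 in sku5 (q = 0.00207) in the authors' deposited tables, a difference of -2.93 ± 0.69 (SE). TPPH (AT4G39770), the trehalose phosphatase gene, changed by -0.71 in WS and 0.63 in sku5 in spaceflight at 8 d in the authors' deposited tables, a difference of 1.34 ± 0.44. For sku5 over WS at 8 d it changed by -0.85 on the ground and 0.49 in spaceflight in the authors' deposited tables, again a difference of 1.34 ± 0.44. Both TPPH differences rest on the same 4 groups, so they are a single pattern.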

How the results depend on the processing

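Tables with 1 value per group allow no repeat without a replicate. No paired analysis was possible because the tables hold no values per library. Depth is unknown and limits which loci are listed. A rise of at least 2-fold in each table kept 35 of the 83 loci, and a rise in at least 3 of 4 tables gave 227. At q under 0.01, members listed fell to 0 for spaceflight in WS at 4 d, 5 in sku5 at 4 d and 1 for genotype on the ground at 4 d. At a change of at least 2-fold they numbered 7 and 5 for spaceflight in sku5 at 4 d and 8 d, 5 in WS at 8 d, and 2, 0 and 0 for genotype on the ground at 4 d, on the ground at 8 d and in spaceflight at 8 d. Among the 35 members with 2-fold rises they numbered 1 and 3 (WS and sku5 at 4 d), 18 and 16 (WS and sku5 at 8 d), and 3, 5 and 4 for genotype in the same order. In spaceflight at 8 d, 18 lower and 0 higher remained of the 35 in WS and 15 lower and 1 higher in sku5. The other 39 alternative values stayed within 1.5 times or within their spread. They include a repeat without the 7 loci spanning over 10000 bp, which was chosen after seeing the data and left 76 loci, 38 of them lower in spaceflight in WS at 8 d. Promoter motif shares and their alternatives were not run.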
